A study of Mus musculus with 9 samples.

Results

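The 9 mouse morula libraries of the series carry their counts under 1 of 2 forms of column header, and the comparison described here sets the 4 libraries whose header begins with "RNA STAR on" against the 5 whose header does not. The header was read from the first line of each file. The RNA STAR header stood on control 2, 6% ethanol 1, 10% ethanol 1 and 10% ethanol 2. The other header stood on control 1, control 3, 6% ethanol 2, 6% ethanol 3 and 10% ethanol 3. All 9 libraries were made from total RNA of C57BL/6J morulae produced by in vitro fertilization with the Nakagata protocol and CARD media. The embryos of control libraries came from control sires, and those of the other 6 from sires labelled 6% EtOH or 10% EtOH, with 3 libraries for each sire treatment. Library numbers follow the order of deposition and pair nothing. The sources used here do not give the ages of the animals or the number of embryos in a library, and nothing says that libraries of a group came from separate fertilizations, so p-values measure the spread between libraries, which may be technical. Nor do they say what the header form stands for. The differences below are therefore differences between libraries, and they are not described as effects of the sire's treatment, which was a term in the fit. Some lists hold genes whose levels change between stages of early development, but whether the libraries differed in stage was not tested.

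A mouse embryo turns on its own genome around the 2-cell stage. Families such as Zscan4, Tdpoz and Eif1ad are expressed in a short burst and then turned down. The list used here for that period also holds Trim43a, Trim43b, Pramel6 and Pramel7, which were abundant in these morulae. By the morula stage the cells compact and form junctions, and the outer cells begin to take the path to trophectoderm, the epithelium of the later placenta, with the transcription factors Cdx2, Gata3 and Tfap2c, claudins and keratins. Ribosomal protein genes and the messenger RNAs of mitochondrial DNA are abundant throughout.

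Sequencing depth moved with the header form. The 4 RNA STAR libraries held 19574710 to 27619281 counts and the other 5 held 6263465 to 11026334, with no overlap (exact permutation test over all assignments of 4 of the 9 libraries, two-sided p = 0.00794, the smallest it can give, and 0.0397 after Benjamini-Hochberg adjustment over 5 measures). Once every library was thinned to the smallest total, the number of genes detected was 14585 to 16515 with the RNA STAR header and 13655 to 16125 with the other (exact permutation test, adjusted p = 0.526). By the same test at that depth, 1.28 to 2.81% of tested genes were at 0 against 2.55 to 10.6% (adjusted p = 0.119). The 10 most abundant genes took 14.2 to 21.9% of counts against 10.6 to 16.6% (adjusted p = 0.119). The 100 most abundant took 29.1 to 37.0% against 27.8 to 34.5% (adjusted p = 0.698). The ribosomal RNA gene Rn18s took 1.28% of counts in control 1 and 1.92% in 10% ethanol 1, 1 library of each header form, and at most 0.119% elsewhere. Xist, which coats the inactive X chromosome of female cells, was at 305, 598, 692, 1667 and 451 CPM (counts scaled to library size) with the other header and at 138, 13.5, 3.58 and 11.4 CPM with the RNA STAR header. The sum of 4 Y-linked genes was 21.6 to 198 CPM with the other header and 38.4 to 49.7 CPM with the RNA STAR header. Markers of cells from outside the embryo were low in both: the summed level was at most 81.1 CPM for 21 cumulus and granulosa genes, 40.9 CPM for 16 sperm and testis genes and 21.5 CPM for 14 blood genes. No count in any library was found for 6 of the 21 cumulus and granulosa genes, 7 of the 16 sperm and testis genes and 5 of the 14 blood genes. Among these were Fshr and Lhcgr, Prm2 and Tnp1, and Ptprc and Hbb-bs. The remaining markers had counts, and the cumulus and granulosa gene Amhr2 averaged 7.67 CPM with the RNA STAR header and 31.6 CPM with the other. The part of depth, Rn18s share or embryo sex in the differences below was not tested.

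Of 11551 genes tested with edgeR's quasi-likelihood test, 11 passed a Benjamini-Hochberg adjusted p of 0.05, which is 0.0952% of the genes. Higher with the RNA STAR header were 4 (0.0346%), namely Ticam2, Itpripl1, Abcg1 and Wnt3a, and lower were 7 (0.0606%), namely Trim43c, Pramel29, Rpl27-ps2, D7Ertd128e, Trim43b, Sltm and Gm47283. An unadjusted p under 0.05 was reached by 1727 genes (15.0%), of which 858 were higher (7.43%) and 869 lower (7.52%), against 577.55 that chance alone would give. The 2 sets of libraries did not overlap at 492 higher genes (4.26%) and 584 lower genes (5.06%). The median log2 difference over all genes was 0.09, and 6122 of the 11551 genes were above 0. DESeq2 called 934 genes (8.09%) and limma voom with sample weights called 301 (2.61%), and both included all 11. The edgeR calls changed when a library was left out: leaving out control 3, 6% ethanol 1, 6% ethanol 2, 6% ethanol 3 or 10% ethanol 3 left 0 calls, leaving out 10% ethanol 1 or 10% ethanol 2 left Ticam2 alone, and leaving out control 1 gave 98. Without control 2 the single call was Xist (log2 −6.17, edgeR adjusted p = 0.0344), which is not among the 11, and none of the 11 passed.

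Among the 4 genes that rose, Ticam2, which encodes an adaptor of Toll-like receptor signalling, was at 2.36, 186, 7.53 and 1.41 CPM in control 2, 6% ethanol 1, 10% ethanol 1 and 10% ethanol 2, and at 0, 0, 0.383, 0.444 and 0 CPM in control 1, control 3, 6% ethanol 2, 6% ethanol 3 and 10% ethanol 3. The libraries below are always given in these 2 orders. Every RNA STAR library stood above every other library, although 6% ethanol 1 alone held most of the counts (log2 difference 8.74, SE 0.98, edgeR adjusted p = 0.0188). Itpripl1, a membrane protein gene, was at 31.3, 18.7, 12.9 and 10.1 CPM against 0.499, 0.294, 0, 0 and 0 CPM. Its 4 RNA STAR libraries were all high, with no overlap (log2 8.02, SE 1.16, edgeR adjusted p = 0.0378). Wnt3a, a secreted Wnt ligand, was at 58.1, 8.25, 2.39 and 1.15 CPM against 0.831, 1.18, 0, 0 and 0 CPM. Its ranges touched, because control 3 lay just above 10% ethanol 2 (log2 6.95, SE 1.08, edgeR adjusted p = 0.041). Abcg1, a cholesterol exporter named because it was called although it lay under the 10 CPM asked of named genes, had 743 counts in the RNA STAR libraries and 1 in the others. The ratio of its depth-scaled counts was 316, with a 95% exact interval of 56.5 to 12495 that covers counting error only. All 4 genes had too few counts in the other libraries to pass the expression filter there.

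The genes that fell included a ribosomal pseudogene and members of multicopy families, whose reads the counting could split. Pramel29, of the PRAME-like family expressed in germ cells and early embryos, was at 2.97, 4.84, 0.727 and 1.33 CPM with the RNA STAR header and at 51.4, 33.3, 65.7, 257 and 48.6 CPM with the other. No library overlapped (log2 −4.79, SE 0.66, edgeR adjusted p = 0.0378). Rpl27-ps2, a processed pseudogene of a large-subunit ribosomal protein gene, was at 17.4, 20.5, 24.1 and 17.2 CPM against 175, 282, 219, 138 and 132 CPM. Both sets were tight and far apart (log2 −3.17, SE 0.45, edgeR adjusted p = 0.0378). Sltm, an RNA-binding modulator of transcription, was at 81.8, 12.7, 63.5 and 50.9 CPM against 408, 500, 499, 398 and 462 CPM. The 5 libraries of the other header lay close together, and all 4 RNA STAR libraries were well below them (log2 −3.38, SE 0.51, edgeR adjusted p = 0.0378). D7Ertd128e, a long noncoding RNA, fell by 3.34 on the log2 scale and the predicted coding gene Gm47283 fell by 6.57 (edgeR adjusted p = 0.0378 for both). Gm47283 was at 0.0725 to 0.505 CPM with the RNA STAR header and at 8.10 to 20.5 CPM with the other. It passed the expression filter through the other libraries alone, so its direction was set by the filter. Both D7Ertd128e and Gm47283 lie outside the rule for named genes and are given because they were called.

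The remaining genes of smallest p did not pass the edgeR threshold, with adjusted p between 0.0518 and 0.0842. On the higher side they were Psap, Plau, Txnip, Gprc5a, H4c11, Eef2 and Sgf29. Plau, at 0 to 0.736 CPM with the other header, and Txnip, at 0.333 to 1.99 CPM, had too few counts there to pass the expression filter. Psap, the precursor of the saposins of the lysosome, was at 3826, 3748, 3978 and 4201 CPM with the RNA STAR header and at 1682, 933, 759, 573 and 1144 CPM with the other. The 4 RNA STAR libraries were nearly equal and above all others (log2 1.98, SE 0.32, edgeR adjusted p = 0.0518). Eef2, the translation elongation factor that moves the ribosome along, was at 3488, 2632, 3549 and 3641 CPM against 1420, 1421, 884, 902 and 1308 CPM. It was high in all 4 RNA STAR libraries, in a list of translation factors whose 39 tested members, Eef2 included, were 18 above 0 and 21 below (log2 1.44, SE 0.26, edgeR adjusted p = 0.0696). On the lower side were Kif20b, a kinesin of cell division, Macf1, a linker of microtubules and actin, Nin, a centrosome protein, Rsrp1 and Pabpn1, a nuclear poly(A)-binding protein. Kif20b was at 17.7, 13.5, 4.77 and 5.3 CPM against 38.3, 129, 432, 296 and 87.3 CPM, with no overlap (log2 −3.61, SE 0.60, edgeR adjusted p = 0.0518).

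**Figure D1:**
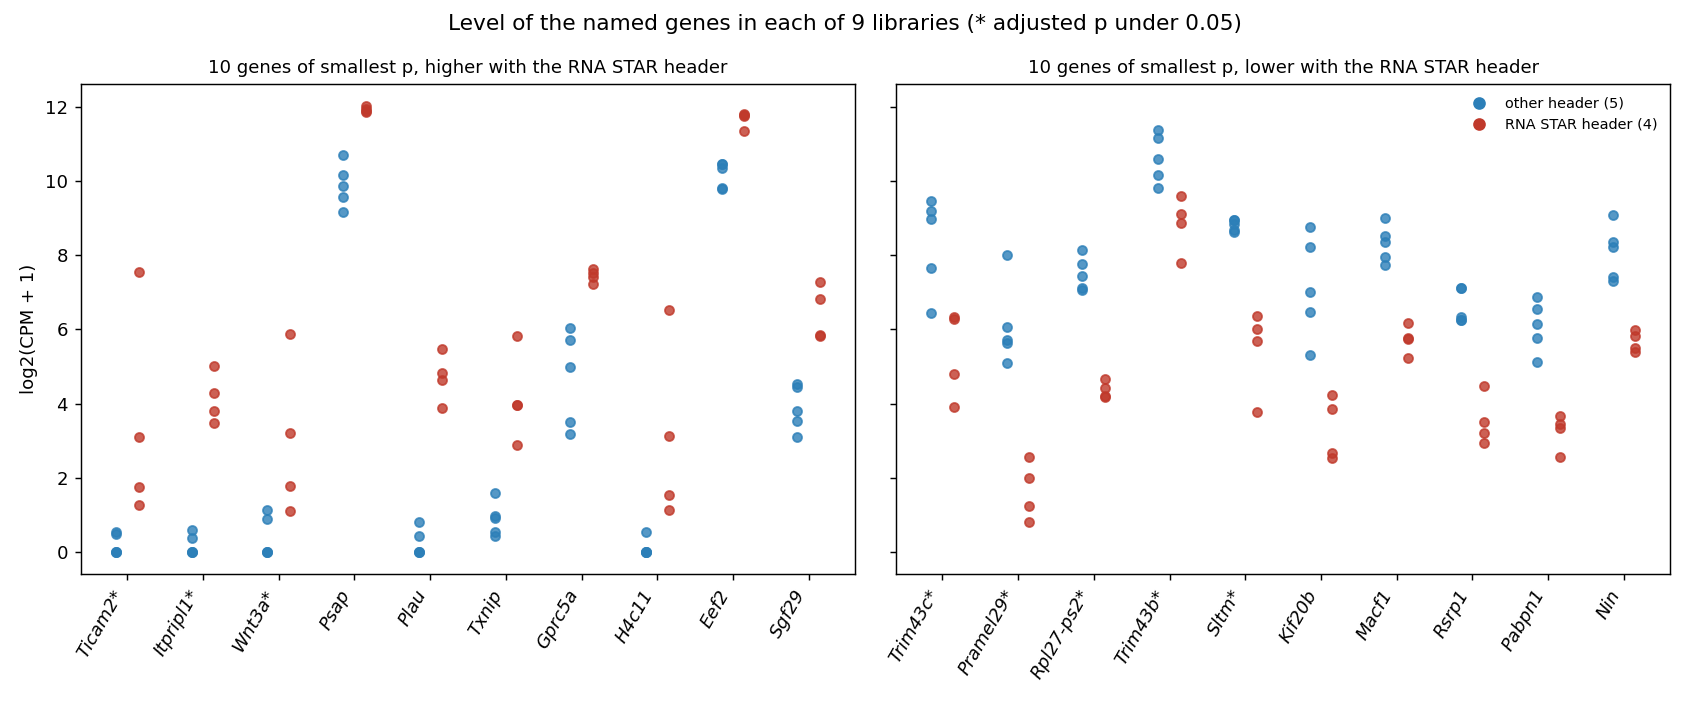
Level of the 20 genes of smallest p in each library, as log2(CPM + 1), with the 5 libraries of the other header in blue and the 4 of the RNA STAR header in red; an asterisk marks an edgeR adjusted p under 0.05. The higher genes were mostly near 0 in the other libraries, except Psap, Eef2, Gprc5a and Sgf29, whereas the lower genes were well expressed in them. The higher genes near 0 had too few counts in the other libraries to pass the expression filter there.

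Genes of the 2-cell list were lower with the RNA STAR header. Of 29 tested, 25 had a log2 difference below 0, and 2 were called lower where 0.0606% of all genes were. Of the 29, 12 had an unadjusted p under 0.05 (7.52% of all genes did so on the lower side). The median difference was −1.51 against 0.09 over all genes. The 25 and the 12 include AF067061, Eif1ad8 and Eif1ad2, which had too few counts in the RNA STAR libraries to pass the expression filter there. AF067061 averaged 0 CPM in those libraries. The direction of these genes was set by the filter, and they also enter the median. The summed level of the whole list was 2344, 4367, 5300 and 4740 CPM with the RNA STAR header and 6247, 8174, 10466, 10975 and 12782 CPM with the other. No library overlapped, and control 2 was lowest and 10% ethanol 3 highest. In RNA of whole embryos, fewer cells of a kind and less RNA per cell cannot be told apart. The Trim43 genes, a family of tripartite-motif proteins whose closely related copies may share reads, carried much of that sum. Trim43a and Trim43b were abundant in every library, so the sum does not measure only genes turned down after the 2-cell stage. Trim43c was at 13.9, 26.7, 79.4 and 77.4 CPM against 85.5, 201, 702, 508 and 586 CPM. Control 1 came close to the RNA STAR libraries and the other 4 stood far above them (log2 −3.57, SE 0.47, edgeR adjusted p = 0.0378). Trim43b was at 222, 464, 783 and 557 CPM against 1150, 907, 1558, 2295 and 2687 CPM, again with no overlap (log2 −2.09, SE 0.31, edgeR adjusted p = 0.0378). Trim43a, at 916 to 2169 CPM against 2231 to 5480 CPM, missed the threshold (log2 −1.51, SE 0.30, edgeR adjusted p = 0.0965).

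Other members of the 2-cell list gave lower values that did not pass. Eif1ad7, of a translation initiation factor family, averaged 4.38 against 99.6 CPM (log2 −3.88, SE 0.94, edgeR adjusted p = 0.13). Eif1ad8 averaged 0.196 against 16.1 CPM (log2 −5.94, SE 2.26, edgeR adjusted p = 0.268). Eif1ad2 averaged 0.0725 against 3.88 CPM (log2 −5.79, SE 2.35, edgeR adjusted p = 0.288). Eif1ad8 and Eif1ad2 had too few counts in the RNA STAR libraries to pass the expression filter there, so their direction was set by the filter. The speckle protein gene Sp110 averaged 161 against 266 CPM (log2 −0.96). Zscan4d, the best-known mark of the 2-cell state, was too sparse to test. It was at 0, 0.0421, 0 and 0 CPM with the RNA STAR header and at 3.49, 0, 7.66, 0.333 and 94.4 CPM with the other. A single library, 10% ethanol 3, held most of its 911 counts, and the RNA STAR libraries held 1 in all, a depth-scaled ratio of 2142 with a 95% exact interval of 384 to 84715 that covers counting error only. With a library left out, both the fit and the members that could be tested changed: the list median was −2.73 without control 2 and −2.57 without 10% ethanol 1, each over 35 members, and −0.93 without control 1 and −0.87 without 10% ethanol 3, each over 25. With genes of at least 10 counts in all, 50 members could be tested and the median was −3.48.

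Trophectoderm genes leaned the other way. Of 29 tested, 26 were above 0, with a median of 1.12, and none was called by edgeR. An unadjusted p under 0.05 was reached by 14 (7.43% of all genes did so on the higher side). The sets did not overlap at 5 (4.26% of all genes). Tfap2a, among these 5, averaged 2.51 against 0.155 CPM. It had too few counts in the other libraries to pass the expression filter there, so its direction was set by the filter. DESeq2 called 9 of the 29 higher and limma voom called 4, against 3.44% and 0.935% of all genes. Cldn4, a claudin of the tight junctions that seal the outer epithelium, was at 325, 320, 366 and 384 CPM with the RNA STAR header and at 238, 96.7, 7.47, 17.2 and 49.4 CPM with the other. The RNA STAR libraries were nearly equal, and the others spread over a wide range below them (log2 3.11, SE 0.67, edgeR adjusted p = 0.105). Aqp3, a water and glycerol channel, was at 137, 307, 158 and 395 CPM against 74.9, 58.6, 76, 23.9 and 40 CPM, with no overlap (log2 2.20, SE 0.54, edgeR adjusted p = 0.13). Id2, an inhibitor of helix-loop-helix factors and an early mark of outer cells, was at 129, 74.6, 35.4 and 50.6 CPM against 83.4, 15.8, 7.66, 5.88 and 8.91 CPM. Control 1 lay among the RNA STAR libraries and the other 4 lay below (log2 2.44, SE 0.63, edgeR adjusted p = 0.134).

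Transcription factors of the lineage gave a wide range of values. Elf3 averaged 218 against 60.7 CPM (log2 2.90, SE 0.88, edgeR adjusted p = 0.197) and Eomes 34.1 against 16.1 CPM (log2 1.26, SE 0.52, edgeR adjusted p = 0.292). Cdx2 was at 69.3, 84.9, 134 and 124 CPM with the RNA STAR header and at 76.4, 94.1, 10.7, 161 and 11.3 CPM with the other. Its sets overlapped fully, since 6% ethanol 3 was the highest of all and 6% ethanol 2 the lowest (log2 0.82, SE 0.98, edgeR adjusted p = 0.719). Gata3 ran from 181 to 392.3 CPM against 5.55 to 404 CPM (log2 1.04, SE 0.88, edgeR adjusted p = 0.59). Tfap2c, the AP-2 factor of the outer cells, averaged 288 against 117 CPM (log2 1.28, SE 0.44, edgeR adjusted p = 0.234). The keratin gene Krt18 was at 649, 67, 50.6 and 72.2 CPM against 71, 50.7, 99.8, 77.3 and 24.1 CPM, so that control 2 alone was high, and its log2 difference of 1.71 was 0.48 without that library. Krt8 ran from 15.5 to 111 CPM against 3.06 to 65.5 CPM. Over the whole list the summed level was 5354, 4474, 3737 and 4435 CPM against 4314, 4210, 2731, 2069 and 2686 CPM, and control 1 and control 3 lay among the RNA STAR libraries.

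**Figure D2:**
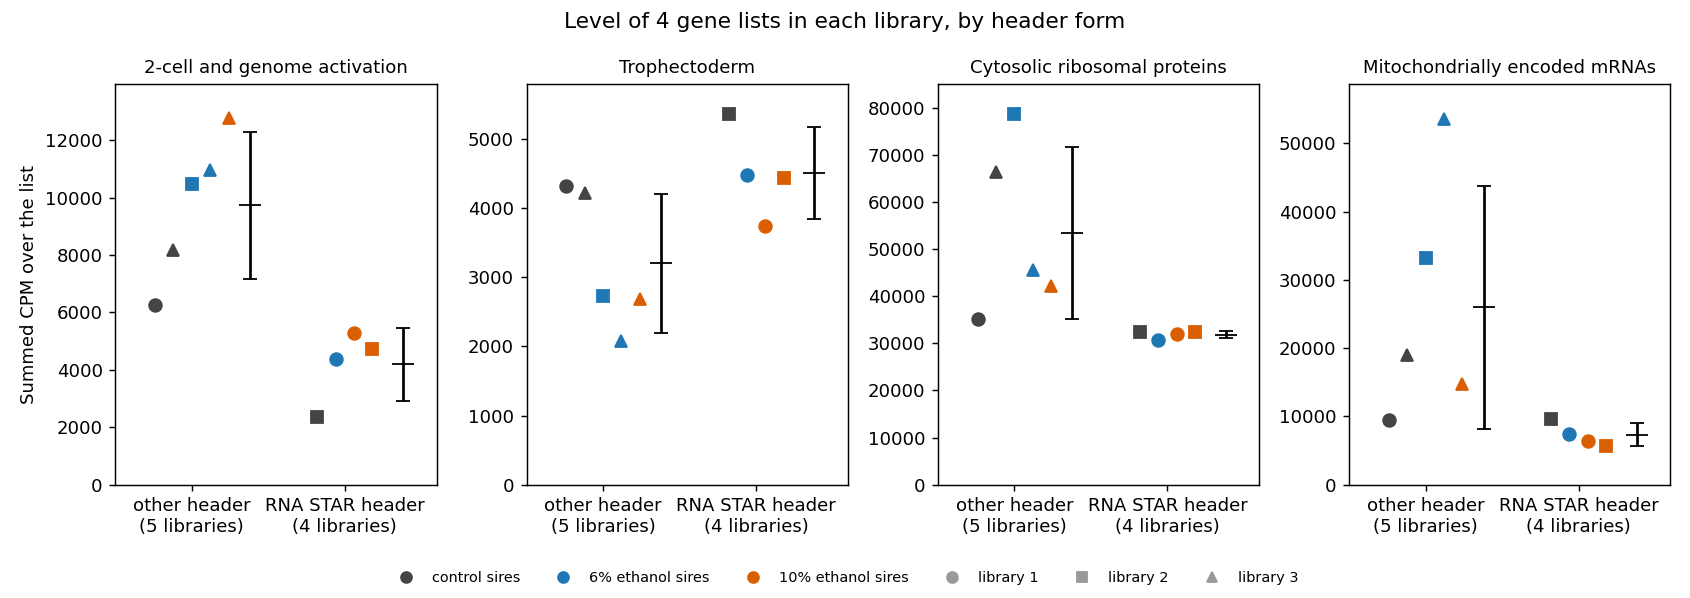
Summed CPM of 4 gene lists in each library by header form, with colours for sire treatment, symbols for library number, and the mean and SD beside each set. The 2-cell and ribosomal lists did not overlap (2344 to 5300 against 6247 to 12782 CPM, and 30711 to 32400 against 35057 to 78635 CPM), and the trophectoderm and mitochondrial lists did.

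Genes of cell junctions and compaction were mixed, with 23 of 33 above 0 and a median of 0.41, which was −0.14 with a G+C and length offset in each library. F11r, the junctional adhesion molecule, was at 181, 247, 266 and 291 CPM against 80.4, 94.1, 66.1, 43.5 and 80.1 CPM, with no overlap (log2 1.70, SE 0.37, edgeR adjusted p = 0.105). E-cadherin, encoded by Cdh1, averaged 416 against 285 CPM (log2 0.58, SE 0.30), and Tjp1, the scaffold of tight junctions, averaged 126.2 against 387 CPM (log2 −1.37, SE 0.46). Tjp1 thus had the opposite sign to the claudins of the same junction. Pluripotency genes were balanced, with 14 of 26 above 0 and a median of 0.03. Nanog ran from 42.5 to 187 CPM against 17.9 to 203 CPM and Pou5f1 from 49.9 to 72.4 CPM against 32.1 to 57.9 CPM, overlapping in both. Dppa4, a chromatin protein of early embryos, was at 114, 89.2, 165 and 113 CPM against 165, 490, 725, 994 and 228 CPM (log2 −1.78, SE 0.56, edgeR adjusted p = 0.209). Its level in control 1 was close to that of the highest RNA STAR library. Primitive endoderm genes had 9 of 10 above 0 and a median of 0.87, yet Gata6, which directs that lineage, averaged 970 against 998 CPM (log2 0.01, SE 0.42). Maternal oocyte genes had a median of 0.30 over 21 tested genes, while their summed level averaged 1902 CPM with the RNA STAR header and 3096 CPM with the other, so the median gene and the sum differed in sign. Most of that sum came from Dppa3 (1401 against 2407 CPM) and Khdc3 (382 against 539 CPM).

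Cytosolic ribosomal protein genes were lower as a group with the RNA STAR header. Of 80 tested, 71 were below 0, none was called by edgeR, 23 had an unadjusted p under 0.05 (7.52% of all genes) and 13 did not overlap (5.06% of all genes), with a median of −0.72. DESeq2 called 10 lower and limma voom 5, where they called 4.65% and 1.67% of all genes. Summed over the list, the level was 32363, 30711, 32002 and 32400 CPM with the RNA STAR header and 35057, 66282, 78635, 45454 and 42055 CPM with the other. The 4 RNA STAR libraries were nearly equal, control 1 lay just above them, and 6% ethanol 2 was highest. Rps13, of the small subunit, was at 158, 206, 214 and 176 CPM against 448, 1217, 1850, 840 and 423 CPM, with no overlap (log2 −2.10, SE 0.50, edgeR adjusted p = 0.121). Rpl6, of the large subunit, was at 482, 425, 532 and 465 CPM against 826, 1731, 1085, 1160 and 1249 CPM. Again no library overlapped, with control 1 the nearest and control 3 the highest (log2 −1.38, SE 0.33, edgeR adjusted p = 0.121). Rpl17 ran from 162 to 364 CPM against 441 to 2124 CPM (log2 −2.01, SE 0.50, edgeR adjusted p = 0.13). Most of these genes have many processed pseudogenes, so their counts are uncertain. Genes of the mitochondrial ribosome, which sit in the nucleus, gave no such lean: 41 of 78 were below 0 and the median was −0.03.

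All 11 tested messenger RNAs of mitochondrial DNA were below 0 with the RNA STAR header. None was called by edgeR, 7 had an unadjusted p under 0.05 (7.52% of all genes) and 4 did not overlap (5.06% of all genes), with a median of −1.20. With a G+C and length offset in each library, 5 of the 11 were above 0 and the median was −0.058. The summed level was 9640, 7501, 6471 and 5698 CPM against 9414, 18979, 33182, 53531 and 14783 CPM. Control 1 lay below control 2 and the other 4 above all RNA STAR libraries, with 6% ethanol 3 the highest. The complex I subunit gene mt-Nd4 was at 406, 238, 341 and 207 CPM against 658, 1682, 3963, 4701 and 924 CPM (log2 −2.32, SE 0.55, edgeR adjusted p = 0.12). mt-Co1, of complex IV, was at 4175, 1701, 1559 and 1534 CPM against 4911, 5148, 6925, 12068 and 6552 CPM. Neither gene overlapped, and control 2 was the highest RNA STAR library in both (log2 −1.54, SE 0.41, edgeR adjusted p = 0.149 for mt-Co1). The mitochondrial ribosomal RNA mt-Rnr2 went the other way as a share of counts, at 8.87%, 11.4%, 14.7% and 10.4% against 5.98%, 5.18%, 4.44%, 6.01% and 11.3%, with 10% ethanol 3 inside the RNA STAR range (log2 0.51, SE 0.26, edgeR adjusted p = 0.377). The other mitochondrial ribosomal RNA, mt-Rnr1, averaged 489 against 870 CPM (log2 −0.97, SE 0.59, edgeR adjusted p = 0.448), the sign of the messenger RNAs. Genes of oxidative phosphorylation in the nucleus leaned down, with 54 of 77 below 0 and a median of −0.48. Cox4i1, of complex IV, was at 254, 240, 221 and 123 CPM against 683, 1023, 741, 570 and 1041 CPM, with no overlap (log2 −1.94, SE 0.36, edgeR adjusted p = 0.0726).

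Smaller lists held other leans, none with an edgeR call. All 19 tested p53 target genes were above 0, with a median of 0.95, and the 2 sets of libraries overlapped at all 19. Of the 19, 4 had an unadjusted p under 0.05 (7.43% of all genes did so on the higher side). They were Sesn2, Phlda3, Pmaip1 and Bbc3. Sesn2, a stress-induced regulator of growth signalling, was at 364, 207, 319 and 179 CPM against 276, 33, 39.5, 48.6 and 39 CPM. Control 1 again lay among the RNA STAR libraries (log2 2.06, SE 0.60, edgeR adjusted p = 0.178). Of 64 listed histone genes among the rows counted, only 5 could be tested. All 5 were above 0, with a median of 2.34. H4c11 was at 1.89, 1.18, 7.68 and 91.6 CPM against 0, 0, 0, 0 and 0.457 CPM, with most counts in 10% ethanol 2 (log2 6.97, SE 1.24, edgeR adjusted p = 0.0621). It had at least 28 counts in each RNA STAR library and at most 4 in any other. It passed the expression filter through the RNA STAR libraries alone, so its direction was set by the filter. A list of abundant structured RNAs had 4 tested members, of which Rn18s (log2 0.09) and Lars2, a protein-coding gene for a mitochondrial tRNA synthetase (log2 −0.29), overlapped widely. Neat1, the scaffold of paraspeckles, was at 1.81, 1.39, 0.675 and 4.94 CPM against 13, 54.8, 15.9, 38 and 51.5 CPM. Malat1, of nuclear speckles, was at 14.3, 13.3, 0.519 and 4.91 CPM against 96.4, 37.7, 86.2, 32.3 and 37.1 CPM. Both of these nuclear RNAs were lower in every RNA STAR library than in every other library (edgeR adjusted p = 0.0974 and 0.157). Immediate early genes had 9 of 13 above 0, with Btg2 at 308, 205, 101 and 163 CPM against 119, 20.9, 36.6, 46.3 and 17 CPM (log2 2.46, SE 0.53, edgeR adjusted p = 0.105), and glycolysis genes had 11 of 16 above 0, with a median of 0.68 that was −0.058 with a G+C and length offset.

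The difference moved with the type and base composition of the transcript. Of 842 tested pseudogenes 671 were below 0, with a median of −1.02, whereas 5698 of 10046 protein-coding genes were above 0, with a median of 0.18. The median was −0.69 for 143 long intergenic noncoding RNAs, −0.77 for 65 antisense genes, −1.85 for 74 genes awaiting experimental evidence (TEC) and −2.63 for 11 sense-intronic genes. Without a stated strand setting, antisense and intronic genes may hold reads of their partners. Pseudogenes took 0.699%, 0.722%, 0.68% and 0.693% of the counts with the RNA STAR header and 0.914%, 1.9%, 1.95%, 1.36% and 1.5% with the other. The RNA STAR libraries were nearly equal and below every other library.

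**Figure D3:**
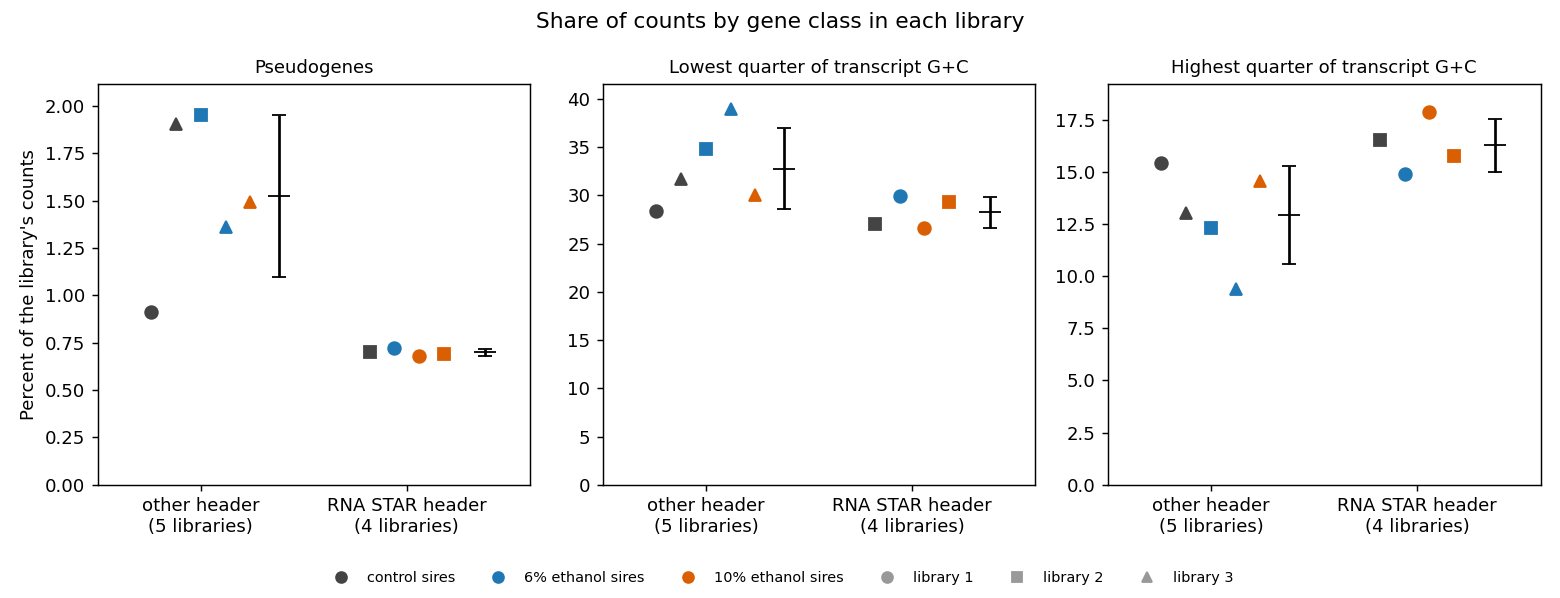
Percent of each library's counts in pseudogenes and in genes of the lowest and highest quartile of transcript G+C, by header form, with the mean and SD of each set. The pseudogene share ran from 0.680 to 0.722% with the RNA STAR header and from 0.914 to 1.95% with the other.

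Across 11269 genes with a GENCODE M21 transcript, the Spearman correlation of the log2 difference with transcript G+C was 0.27, given as a description because genes share libraries. In deciles of the genes by G+C the median went from −0.47 in the lowest to 0.60 in the highest. By length it was −0.78 in the decile of shortest transcripts, 0.32 in the fifth and −0.20 in the longest. Transcripts of genes with an unadjusted p under 0.05 had a median G+C of 52.6% when higher and 46.2% when lower, against 49.4% over all. Genes of the highest quartile of G+C took 14.9 to 17.9% of counts with the RNA STAR header and 9.38 to 15.4% with the other, and those of the lowest quartile took 26.6 to 30.0% against 28.4 to 39.0%. With a G+C and length offset fitted in each library, 4 genes were called and the trophectoderm median was 0.46, while the 2-cell median was −1.47 and the ribosomal one −0.59. The median over all genes was −0.12 under that offset. The offset also turned the log2 difference of Cdx2 to −0.14 and that of Pou5f1 to −0.10.

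**Figure D4:**
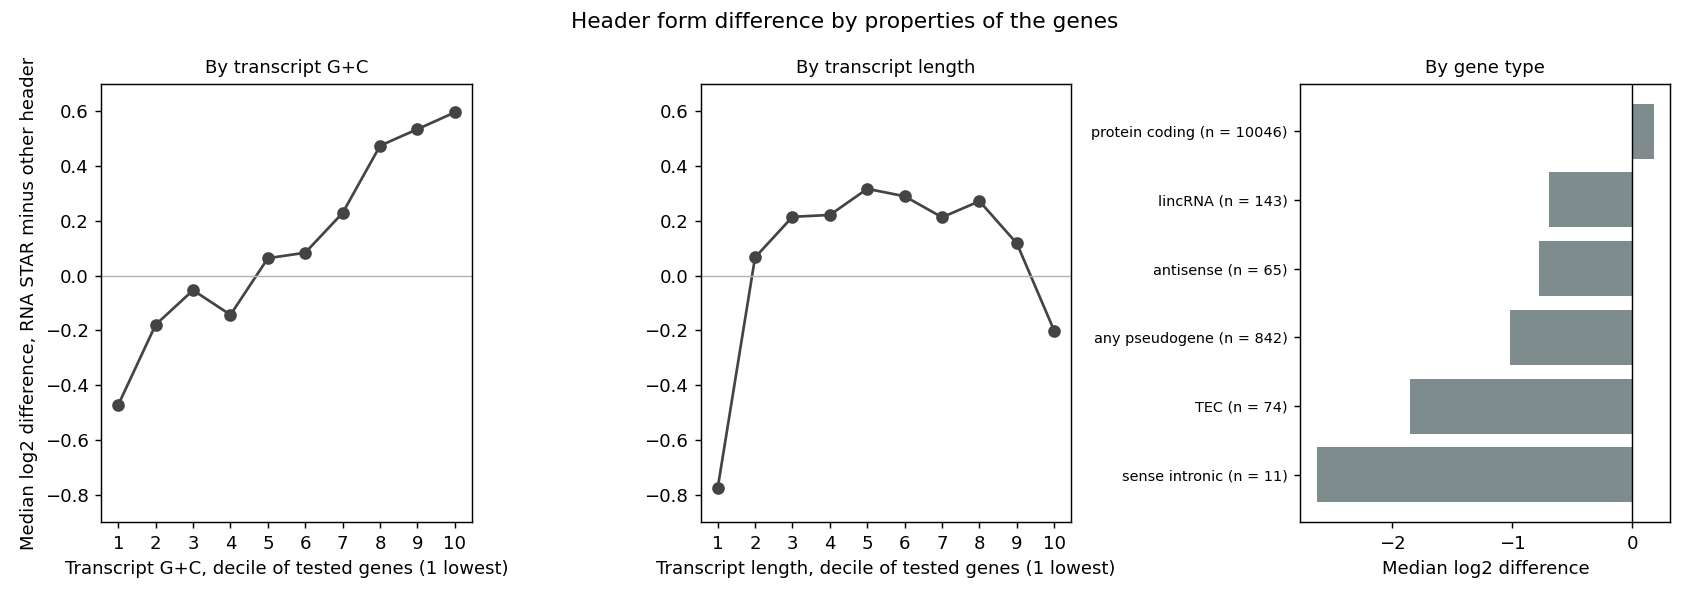
Median log2 difference (RNA STAR minus other header) in deciles of the tested genes by transcript G+C and by transcript length, and by gene type with the number of genes tested. The median went from −0.47 to 0.60 along G+C, was −0.78 for the shortest decile by length, and was above 0 among the types shown only for protein-coding genes.

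The contrast in base composition can be read in coding sequence of genes from both ends. The stretches of 90 coding bases below, from GENCODE M21 (build GRCm38), are those whose G+C lies closest to that of the whole coding sequence, with G and C in capitals. Wnt3a and Eef2 are genes higher with the RNA STAR header, and Kif20b and Trim43c are lower ones.
Wnt3a: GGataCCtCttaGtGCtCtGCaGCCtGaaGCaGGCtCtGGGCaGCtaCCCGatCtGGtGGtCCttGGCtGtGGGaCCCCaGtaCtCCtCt
Eef2: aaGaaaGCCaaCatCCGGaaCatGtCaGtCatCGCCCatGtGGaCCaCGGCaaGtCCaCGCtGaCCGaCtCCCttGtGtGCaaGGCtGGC
Kif20b: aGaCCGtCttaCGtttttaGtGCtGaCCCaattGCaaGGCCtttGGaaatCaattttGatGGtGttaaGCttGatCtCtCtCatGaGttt
Trim43c: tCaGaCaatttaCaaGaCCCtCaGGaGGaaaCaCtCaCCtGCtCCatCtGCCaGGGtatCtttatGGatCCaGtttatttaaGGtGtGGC
The whole coding sequences hold 60.4% G+C in Wnt3a, 57.3% in Eef2, 39.8% in Kif20b and 45.6% in Trim43c. Over the genes named by smallest p, coding G+C ran from 50.9 to 60.4% for 8 higher genes and from 39.8 to 61.3% for 8 lower genes, so the lower set also holds G+C-rich genes, Pabpn1 at 61.3% and Rsrp1 at 59.6%. Wnt3a and Eef2, whose sequences are shown, are the richest of these genes in the higher set, and Kif20b and Trim43c are the poorest in the lower set.

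Both header forms occur in every sire treatment, so the lists could be compared within each. The difference in mean log2(CPM + 1) of the 2-cell list was −0.48 among control libraries, −1.16 among 6% ethanol and −2.20 among 10% ethanol. For trophectoderm it was 0.95, 1.79 and 1.15, and for ribosomal genes −0.62, −1.02 and −0.50. In all 3 treatments every RNA STAR library lay on the same side of every other library for these 3 lists. For mitochondrial messenger RNAs it was −0.73, −2.38 and −0.77, and the control libraries overlapped. Each of these rests on 1 library against 2, and whether the sizes differ between treatments was not tested.

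The libraries did not fall into 2 clean sets. Each library was placed between the 2 header forms with genes chosen from the other 8 (unadjusted p under 0.05 and a log2 difference of at least 1), where 0 is the mean of the other header and 1 that of the RNA STAR header. The RNA STAR libraries stood at 0.78, 0.94, 0.88 and 0.91. Those of the other header stood at 0.73 for control 1, 0.28 for control 3, −0.11 for 6% ethanol 2, −0.06 for 6% ethanol 3 and 0.34 for 10% ethanol 3. Control 1 was thus next to control 2, and 66.4% of its 2074 genes lay nearer the RNA STAR mean. Its levels of Id2 and Sesn2 also lay within the RNA STAR range. Without control 1, edgeR called 98 of 11692 genes (0.838%), 33 higher and 65 lower, among them 10 of the 11 genes called with all libraries. Of 29 trophectoderm genes, 4 were called higher. Lower calls took in 3 of 25 2-cell genes and 3 of 81 ribosomal genes, and no mitochondrial messenger RNA was called.

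**Figure D5:**
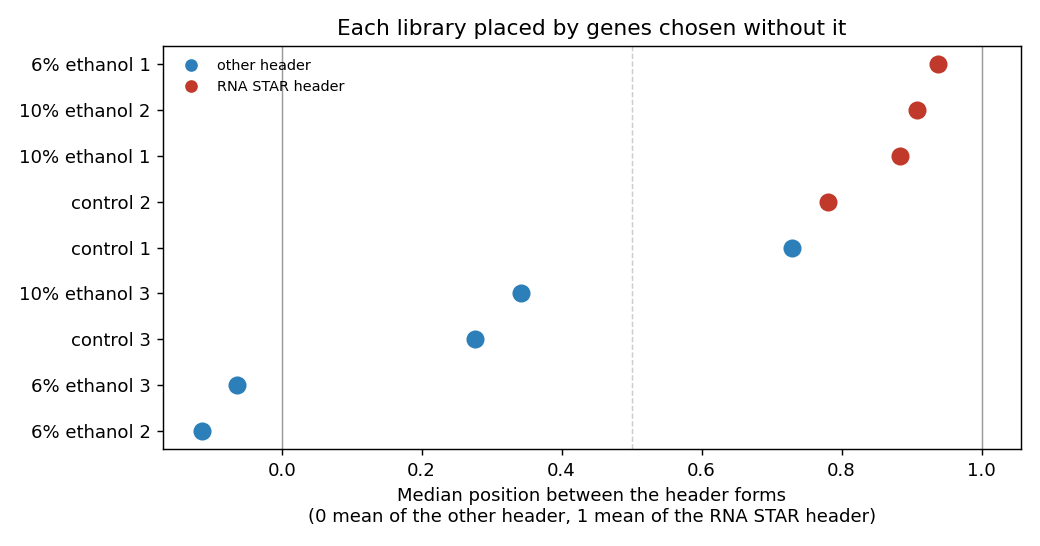
Median position of each library between the mean of the other header (0) and that of the RNA STAR header (1), over genes chosen without that library. The 4 RNA STAR libraries lie from 0.78 to 0.94, control 1 lies at 0.73, and the remaining 4 lie from −0.11 to 0.34.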

How the data were processed

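The deposited values were raw counts from featureCounts on GRCm39 (mm39), per the submitters' processing notes. DESeq2 also stands in those notes. The sources used here give no versions, annotation or strand setting. All 9 files listed the same 53819 rows. Per the file headers, 4 count columns begin with "RNA STAR on". For the other 5 the sources used here name no aligner.

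Genes were kept with edgeR's filterByExpr by header form and scaled with TMM factors. The quasi-likelihood test was fitted to all 9 libraries with sire treatment and header form as terms, leaving 5 residual degrees of freedom, with Benjamini-Hochberg adjustment across the whole table. CPM are on TMM-scaled library sizes and are not comparable between genes. The fits used edgeR 4.0.16, DESeq2 1.42.0 and limma 3.58.1 in R 4.3.3 and were checked on simulated counts, where DESeq2 made more false calls than edgeR or limma voom.

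Transcript type, length and G+C came from GENCODE M21 (GRCm38), matched by symbol for 97.6% of tested genes. That build differs from the files', so no coordinates are printed. The gene lists, 28 in all, and the comparison itself were chosen with earlier results of these data known, so lists carry counts and medians and no test. Named genes were the 10 of smallest p in each direction with a mean of at least 10 CPM in a header form, predicted symbols left out, the 2 or 3 of smallest p in 15 lists, and 11 defining genes. The other genes named, mostly from list members, were chosen after their values were seen. The results were recomputed under 24 alternatives.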

Additional observations from a re-analysis of the deposited data

Results flagged for a closer look

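Single libraries stood apart from the rest of their header set at 13 genes and 2 lists, 15 of 184 sets examined. Dixon's test would flag about 9.2 if levels were normally distributed, which skewed CPM with values of 0 are not. A set with a single level above 0 is flagged in any case, as for Abcg1, Nodal, H4c11 and Zscan4d. Control 1 was the highest of its set for Abcg1 (0.0831 CPM), Nodal (1.66 CPM) and Sesn2 (276 CPM) and for the summed unfolded protein list (6494 CPM), and the lowest for Mrpl30 (59.2 CPM). Control 2 was the highest of its set for Krt18 (649 CPM), mt-Co1 (4175 CPM), Sox2 (6.31 CPM) and the glycolysis list (2167 CPM). In 6% ethanol 1, Eef2 was low at 2632 CPM and Zscan4d, at 0.0421 CPM, was the one level above 0 in its set. In 10% ethanol 1, Pdgfra was low at 19.3 CPM, and in 10% ethanol 2, mt-Cytb was low at 785 CPM. In 10% ethanol 3, H4c11 and Tle6 were both high at 0.457 CPM, where the rest of the set was at or near 0.

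Summed list levels went in opposite directions in different sire treatments for 6 lists, with every RNA STAR library on one side in one treatment and on the opposite side in another. This was not tested. As log2 differences of summed CPM between the RNA STAR and the other header, pluripotency was at −0.47 among control, −0.30 among 6% ethanol and 0.20 among 10% ethanol libraries. Maternal oocyte genes were at −0.65, −1.14 and 0.14 and splicing genes at −0.40, −0.62 and 0.23 in the same order. Primitive endoderm was at −0.60 among control and 1.11 among 10% ethanol libraries, although its mean log2 level was higher in all 3 treatments. Heat shock genes were at −0.34 and 0.15, and translation factors at −0.19 and 0.10, among 6% and 10% ethanol libraries.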

How the results depend on the processing

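The count of genes called, 11 with 4 higher and 7 lower, moved with the test and the filter more than with the scaling. It was 934 (397 and 537) with DESeq2, 301 (108 and 193) with limma voom, 85 (28 and 57) with a looser filter, 71 (17 and 54) with no sire treatment term, and 48 (16 and 32) at an adjusted p of 0.1. A stricter filter gave 12 lower genes. Alternatives chosen after seeing the data gave 24 (8 and 16) with protein-coding genes alone, 4 (1 and 3) with a G+C and length offset, and 0 (0 and 0) without both libraries of high Rn18s share, where 1787 genes had an unadjusted p under 0.05. Leaving out 1 library gave 0 to 98 calls, 0 to 33 higher and 0 to 65 lower, and 789 (without 6% ethanol 1) to 2249 genes at an unadjusted p under 0.05. DESeq2 and limma voom were not run with fewer libraries. With 1 library left out, list medians ran from −2.73 to −0.87 (2-cell), 1.14 to 1.53 (trophectoderm), −0.91 to −0.54 (ribosomal) and −1.62 to −1.02 (mitochondrial). The 2-cell median was −3.48 with the looser filter, which tests more sparse genes. Under the G+C and length offset the trophectoderm median was 0.46 and the mitochondrial one −0.058. Among named genes, reversed signs, none of them past the threshold, were Cdx2 at −0.14 and Pou5f1 at −0.10 under that offset, Cdx2 at −0.16 without 10% ethanol 3 (up to 2.21 without 6% ethanol 3), and Rn18s at −0.30 without both libraries of high Rn18s share and at −1.29 to 1.74 with 1 library left out. Medians of smaller lists also changed sign, as for pluripotency (−0.27), junctions (−0.14) and mitochondrial ribosomal RNA (1.02) under the offset and abundant structured RNAs (1.20) without control 2. Scaling by library totals moved the median of all genes from 0.09 to 0.22 and kept the sign of the 4 main list medians, as did thinning to equal depth. With mitochondrial genes left out, the mitochondrial list could not be tested. The cause of these shifts was not tested. No paired analysis was possible because the labels give no replicate numbers that groups share.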
